A study of Mus musculus with 4 samples.

Results

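The genes described here encode the proteins of the cytosolic ribosome. They were chosen by name: every gene of the expression table whose symbol begins with Rpl or Rps and a digit, together with Rplp0, Rplp1, Rplp2 and Rpsa, was taken, and the Rps6k kinases and names marked as pseudogenes were left out. Of 13353 genes in the table, 97 names matched, 10 kinases and 7 pseudogenes were removed, and 80 members remained. They comprised 42 large-subunit proteins, 31 small-subunit proteins, 5 paralogs of core proteins (Rpl7l1, Rpl22l1, Rpl36al, Rps27l and Rps4l), the further copy Rpl37rt, and Rps19bp1, which shares only the name. Of the core proteins, 46 large-subunit and 31 small-subunit names were looked for and 4 had no row: Rpl13 and Rpl24 were listed at 0 UMIs (unique molecular identifiers, the tags that mark single captured RNA molecules) in the count tables, while Rpl26 and Rpl35a carried 1649 and 1600 UMIs there.

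The ribosome joins a small subunit, which reads the mRNA, and a large subunit, which forms the peptide bond. Ribosomal proteins are assembled with ribosomal RNA in the nucleolus, one copy of most proteins per particle, and their mRNAs are held under common translational control through a pyrimidine tract at the 5′ end. In neurogenic niches, growth and protein synthesis change as quiescent radial glia enter the cell cycle and as their progeny differentiate, so these genes are often followed as a unit.

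The measurements were single-nucleus RNA counts from the mouse dentate gyrus. Male and female C57BL/6J mice, 6 to 8 weeks old, carrying a CreERT2 driver and CAG floxStop-Sun1/sfGFP received tamoxifen (TAM), so that cells in which the driver was active and their descendants kept a green nuclear envelope, and GFP+ nuclei were sorted 1, 2, 4 or 8 weeks later (w1, w2, w4 and w8). All 4 groups share this genotype and TAM, the label reports Cre activity and not cell identity, and each group was 1 library made from a pool of 4 left dentate gyri. On each working day 2 time points were processed, and which ones is not given in the sources used here. The nuclei were assigned by the authors to radial glia-like cells (RGL), neural progenitor cells (NPC), neuroblasts (NB1, NB2), immature (GCimm1, GCimm2), young (GCyoung) and mature (GCmat1, GCmat2) granule cells, and to small glial and pericyte clusters. With 1 library a week, no test between weeks could be made, a week cannot be told apart from its library, and tests between clusters measured only how far the difference held across libraries.

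The libraries held 2867, 4243, 3831 and 3426 annotated nuclei at w1, w2, w4 and w8, with 13227971 to 28595331 UMIs in all and a median per nucleus that was lowest at w1 (4369) and highest at w8 (7703). The marker lists hold genes by which the authors described these clusters, so their levels are no separate check of the names. The RGL list summed to between 2795 and 3191 CPM (UMIs in every 1000000) in RGL, and the NPC list to between 2726 and 3557 CPM in NPC. The neuroblast list summed to between 2784 and 3664 CPM in NB1 and NB2, and to between 1756 and 2543 CPM in NPC. The list for immature granule cells was at 4168 to 4541 CPM in GCimm1. It was higher in NB2 (3934 to 4171 CPM) than in GCimm2 (2651 to 3401 CPM). The list for mature granule cells summed to between 5069 and 5225 CPM in GCmat1. Between the libraries, 22 barcodes of annotated nuclei were shared. Endothelial markers summed to 13.1 to 96.2 CPM in NPC (61.1 pooled) and to 0 to 13.3 CPM in the other lineage clusters. Microglial markers summed to 0 to 132 CPM in the lineage clusters. All calls among members below involve NPC, and the part of the endothelial signal in them was not tested.

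Start regions are shown first for 5 of the members that passed a test below, chosen because each holds a motif known from promoters of this family. Each line holds 130 bases of RefSeq on GRCm38.p6, read 5′ to 3′ on the strand of the gene, with the annotated start at base 101. Capitals mark CCGGAA or its reverse complement TTCCGG, the palindrome of TCTCG and its reverse complement CGAGA, and a run of C and T near the start. Rpl12, whose protein lies at the base of the stalk, is at chr2:32961612-32961741 (+). Rpl18, a large-subunit protein, is at chr7:45717971-45718100 (+). Rps24, a small-subunit protein, is at chr14:24490578-24490707 (+). Rpsa, a small-subunit protein that is also known as a laminin receptor, is at chr9:120127666-120127795 (+). Rpl7l1, the paralog of Rpl7, is at chr17:46782627-46782756 (-).
Rpl12: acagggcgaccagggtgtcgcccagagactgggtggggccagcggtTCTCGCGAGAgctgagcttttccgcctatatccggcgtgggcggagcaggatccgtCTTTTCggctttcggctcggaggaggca
Rpl18: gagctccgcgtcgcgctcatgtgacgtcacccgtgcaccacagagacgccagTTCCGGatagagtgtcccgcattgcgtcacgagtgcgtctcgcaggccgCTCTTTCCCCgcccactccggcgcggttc
Rps24: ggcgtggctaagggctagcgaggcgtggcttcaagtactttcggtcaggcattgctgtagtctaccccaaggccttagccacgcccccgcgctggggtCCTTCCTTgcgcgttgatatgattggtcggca
Rpsa: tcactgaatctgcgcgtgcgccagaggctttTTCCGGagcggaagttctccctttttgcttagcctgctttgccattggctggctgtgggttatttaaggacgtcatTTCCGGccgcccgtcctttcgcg
Rpl7l1: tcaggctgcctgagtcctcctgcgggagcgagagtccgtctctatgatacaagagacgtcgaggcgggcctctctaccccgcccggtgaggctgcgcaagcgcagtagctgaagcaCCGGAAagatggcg
The run of pyrimidines began at base 103 in Rpl12, 102 in Rpl18 and 99 in Rps24. RefSeq start regions of 300 bases were at hand for 59 of the 80 members and for 27025 genes in all. A C at the start followed by at least 4 pyrimidines was present in 12 members (20.3%) and in 3.01% of all genes, and a C with at least 5 pyrimidines within 5 bases of the start in 25 members (42.4%) against 11.9%. CCGGAA, on either strand, was found in 33 members (55.9%) and in 16.7% of all genes, and the palindrome in 5 members (8.47%) against 0.525%. The other motifs searched on both strands were GGGCGG (64.4% of members, 38.2% of genes), AAGATGG (15.3% and 7.28%) and the E-box CACGTG (10.2% and 8.09%). These are matches of letters in a window, and of 11 members that passed a test in some comparison 8 had an entry. Among these, Rpl9, Rps3 and the first of 2 starts of Rpl10a held none of the marked motifs in the 130 bases. In the 300 bases, the second start of Rpl10a held CCGGAA and the palindrome, and Rps3 held CCGGAA. Rpl8 and Rplp1 were among those with no entry.

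The members lay on 18 chromosomes, and 78 of the 80 were annotated as protein coding. Their genes spanned 828 to 31449 bases with a median of 3266, and 29 of them held a total of 57 annotated snoRNA genes. Of the 80, 8 overlapped another gene on the same strand, among them Rpl13a, Rpl19, Rpl27a, Rpl3, Rpl36al, Rps10 and Rps21, so that their counts are uncertain. Ribosomal protein genes have many processed copies, and since reads matching several places were dropped by the authors, the counts are those of reads unique to each locus.

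Together the 80 members supplied 173815 UMIs. Single members had 236 (Rps4l) to 5290 UMIs, with a median of 2053, and were seen in 1.56% to 26.7% of nuclei. Nearly every nucleus had at least 1 member UMI: 99.9% at w1, 100% at w2 and w4, and 99.8% at w8. Large-subunit proteins took 50.9% and small-subunit proteins 45.2% of the member UMIs, and the 10 most counted members 22.8%. These totals describe precision and do not rank the genes, since lengths were not taken into account.

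Ribosomal protein transcripts made up 0.212% of UMIs at w1, 0.286% at w2, 0.190% at w4 and 0.0957% at w8. In CPM the summed member level was 2124 at w1 (95% exact Poisson interval 2099 to 2149), 2862 at w2 (2841 to 2884), 1899 at w4 (1883 to 1916) and 957 at w8 (946 to 969), where all intervals cover counting error only. Over all nuclei, 79 of 80 members were highest at w2 and 80 of 80 lowest at w8. Rpl15, a large-subunit protein, was the exception, with 10.6 CPM at w1 and 10.4 CPM at w2. This order mixes the clusters of a library with its week. GCmat1 were 2927 of 3426 nuclei at w8, and GCimm1 and NB1 were 1933 and 956 of 4243 at w2. Within RGL alone, 58 members were highest at w2 and 54 lowest at w8. The mRNAs of the mitochondrial genome, which lie outside the nucleus, were likewise highest at w2 and lowest at w8, with 38.4, 72.4, 44.8 and 6.47 CPM at w1, w2, w4 and w8, and their part in the member levels was not tested.

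Within each library the summed CPM was highest early in the lineage. At w1 it was 1961 CPM in RGL, 2523 in NPC, 2287 in NB1, 1911 in NB2, 2156 in GCimm1 and 1454 in GCmat1. At w2 it was 3177 CPM in RGL, 3808 in NPC, 3463 in NB1, 2786 in NB2, 2894 in GCimm1 and 2202 in GCimm2. NPC held the highest value in both. At w4 the sums ran from 2694 CPM in RGL and 3565 in NPC through 3475 in NB1, 2908 in NB2, 2889 in GCimm1 and 2311 in GCimm2 to 1693 in GCyoung and 1552 in both GCmat1 and GCmat2. At w8 they were 1501 CPM in RGL, 1399 in GCimm2, 1094 in GCyoung, 939 in GCmat1 and 950.5 in GCmat2. NPC was thus highest in the 3 libraries that held at least 10 of these nuclei, at w4 by less than the counting error of its 272 member UMIs, and RGL was highest at w8, where NPC were 2 nuclei.

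From RGL to NPC the sum was higher in each of 3 libraries, with a mean log2 ratio of 0.34 ± 0.07 (SD, n = 3). The median over all tested genes, taken from single-gene CPM ratios with 0.5 counts added, was 0.37 on average. Sums and such medians, set side by side in this paragraph, are unlike measures, and the added count weighs most in small sums. Medians of the members' own ratios were 0.42, 0.29 and 0.60 at w1, w2 and w4, beside 0.35, 0.31 and 0.45 over all genes. From NB1 to NB2 the ratio was -0.28 ± 0.03 (n = 3) with a median of 0.03 over all genes, and from GCimm1 to GCimm2 -0.36 ± 0.05 (n = 2) with a median of -0.17. From GCimm2 to GCyoung it was -0.40 ± 0.07 (n = 2) beside a median of -0.36. NPC to NB1 gave -0.11 ± 0.06 (n = 3) beside -0.33 over all genes. By library it was -0.14 beside -0.25 at w1, -0.14 beside -0.30 at w2 and -0.04 beside -0.43 at w4, where NPC were 22 nuclei. The members' own medians in this step were -0.19, -0.21 and -0.23 at w1, w2 and w4. NB1 to GCimm1 gave -0.20 ± 0.10 (n = 3, all genes -0.13), GCyoung to GCmat1 -0.17 ± 0.07 (n = 2, all genes -0.07) and GCmat1 to GCmat2 0.01 ± 0.01 (n = 2, all genes 0.08). Across the whole span from NPC to GCmat1 the ratio was -0.998 ± 0.29 (n = 2), beside a median of -0.78 over all genes. It was -0.80 at w1, where GCmat1 were 17 nuclei, and -1.20 at w4, where NPC were 22 nuclei. The members' own medians over this span were -0.46 at w1 and -1.45 at w4, beside -0.44 and -1.11 over all genes. These sums of chosen genes were not tested, and the SD gives their spread between libraries.

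Counted per nucleus instead of as CPM, the sum was no longer lower in most of these steps. More UMIs were captured from mature nuclei: from NPC to GCmat1 the UMIs per nucleus were 2.06-fold higher at w1, where GCmat1 held 17 nuclei, and 2.58-fold higher at w4, where NPC held 22. Member UMIs per nucleus went from 11.2 in NPC to 13.4 in GCmat1 at w1, and from 12.4 to 13.9 at w4, a mean log2 ratio of 0.21. From NB1 to NB2 the per-nucleus ratio was 0.01, from GCimm1 to GCimm2 0.20 and from GCimm2 to GCyoung 0.09. RGL to NPC kept its direction at 0.24 and NPC to NB1 at -0.14, and GCmat1 to GCmat2 gave -0.22. At w1 and w4 the members were thus a smaller share of more UMIs in GCmat1 than in NPC. The rise in member UMIs per nucleus was not beyond counting error, since the intervals overlapped. They were 10.6 to 11.9 in NPC and 11.7 to 15.2 in GCmat1 at w1, and 10.9 to 13.9 and 13.5 to 14.3 at w4. At w8 GCmat1 held 8.13 member UMIs per nucleus, below the NPC values at w1, w2 and w4.

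Libraries differed by about as much as clusters did. Within a library, the highest cluster exceeded the lowest by 1.74-fold at w1, 1.73-fold at w2, 2.30-fold at w4 and 1.598-fold at w8 in CPM. Within a cluster, the highest library exceeded the lowest by 2.12-fold in RGL, 1.51-fold in NPC, 1.52-fold in both NB1 and NB2, 1.34-fold in GCimm1, 1.65-fold in both GCimm2 and GCmat1, 1.55-fold in GCyoung and 1.63-fold in GCmat2. In RGL, where the same cluster name could be followed through all weeks, the sum was 9.28 UMIs per nucleus at w1, 14.7 at w2, 10.3 at w4 and 5.68 at w8.

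In several pairs of libraries these differences ran through nearly all members. In NB1, 80 of 80 members were higher at w2 than at w1, with a median log2 ratio of 0.60 against 0.11 for all genes, and in RGL 77 of 80 were, with 0.68 against 0.18. From w2 to w8 in RGL 75 of 80 members were lower (median -0.99, all genes -0.10). From w4 to w8, 75 of 80 were lower in GCyoung (-0.60, all genes 0.02) and 77 of 80 in GCmat1 (-0.76, all genes -0.02). Other pairs were less one-sided, with 67 of 80 higher in GCimm1 and 68 in NPC from w1 to w2, 62 lower in GCmat2 and 60 lower in GCimm2 from w4 to w8, and 54 lower in RGL from w1 to w8. From w2 to w4, 44 were higher and 36 lower in NB1 (median 0.01), 36 higher and 44 lower in both NPC (-0.03, all genes 0.16) and GCimm1 (-0.02), 48 higher and 32 lower in NB2 (0.22, all genes 0.25), 51 higher and 29 lower in GCimm2 (0.11), and 21 higher and 59 lower in RGL (-0.25, all genes -0.05). Differences between these clusters were not tested. Since each week was 1 library, these counts describe pairs of libraries, and members counted in the same library share its depth.

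**Figure D1:**
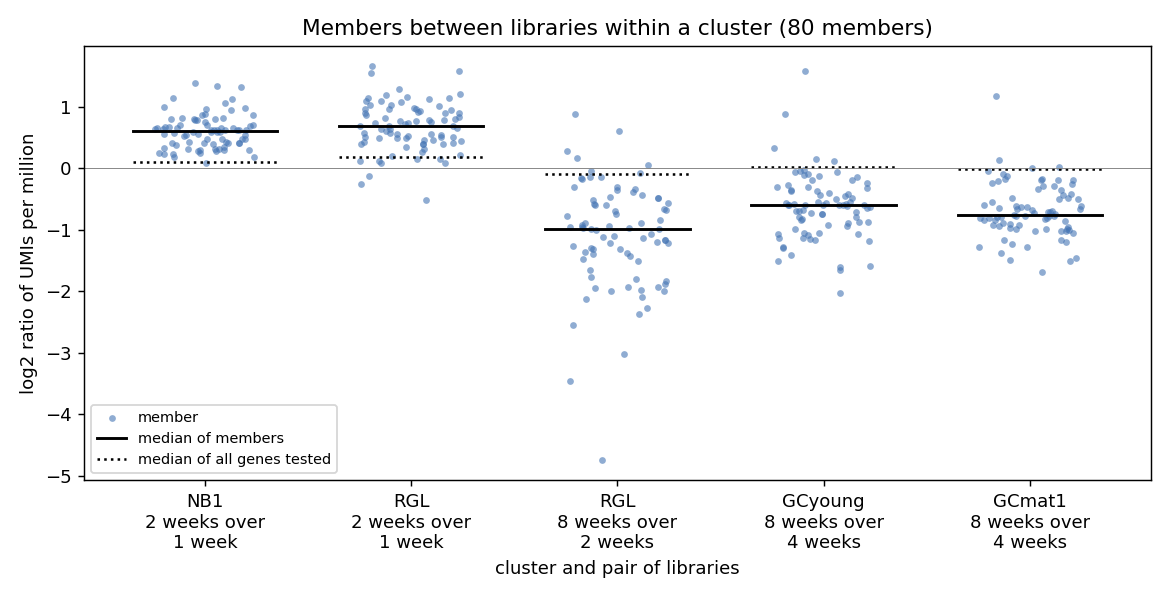
Log2 ratio of each member's CPM (y axis, blue points) between 2 libraries within 1 cluster (x axis), with the median of the members and of all tested genes as horizontal marks. Nearly all points lie above 0 for w2 over w1 in NB1 (80 of 80) and RGL (77 of 80) and below 0 for w8 over w4 in GCyoung and GCmat1 (75 and 77 of 80).

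Transcripts from the mitochondrial genome differed between the same libraries. They were at 36.8 CPM at w1 and 91.3 at w2 in NB1, at 41.1 at w4 and 4.88 at w8 in GCyoung, and at 37.4 at w4 and 6.48 at w8 in GCmat1. Over 38 sums of a cluster in a library with at least 10 nuclei, member CPM and mitochondrial CPM had Pearson r = 0.78 on log2 values and Spearman rho = 0.84. Against the median UMIs per nucleus the values were r = -0.56 and rho = -0.52, and against the ribosomal pseudogenes left out of the members r = 0.46 and rho = 0.47. The sums share 4 libraries and their depths, so these are descriptions, and the part of RNA from outside the nucleus in the member levels was not tested.

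Along the authors' pseudo-time, in windows 2 units wide, the sum could be followed inside each library. At w2 the members summed to 3141 CPM in the first window, all RGL, to 3644 in the window from 8 to 10, mostly NPC, to 3495 from 14 to 16 and to 2074 from 20 to 22, which was GCimm2. Per nucleus the last 2 of these were at 15.0 and 21.9 UMIs. At w4 the sum went from 2671 CPM in RGL to 3530 in the window from 14 to 16, then to 2266 from 20 to 22, and was 1680, 1670 and 1664 CPM in the 3 windows between 24 and 30. At w8 it was 1501 CPM in RGL and 858 in the last window, from 30 to 32. Among windows of at least 50 nuclei, the highest in CPM was mostly of NPC at w1 and w2, and of RGL at w8. At w2 the interval of that NPC window (3444 to 3853) held the 3495 CPM of the window from 14 to 16, which was mostly GCimm1. At w4 the window from 14 to 16, mostly GCimm1, had an interval (3284 to 3791) that held the 3457 CPM of the NB1 window before it. NPC, with 22 nuclei at w4 and 2 at w8, had no window in those libraries. The windows from 24 to 28 at w4 were over 98% GCyoung, and the one from 28 to 30 was 50.2% GCyoung.

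**Figure D2:**
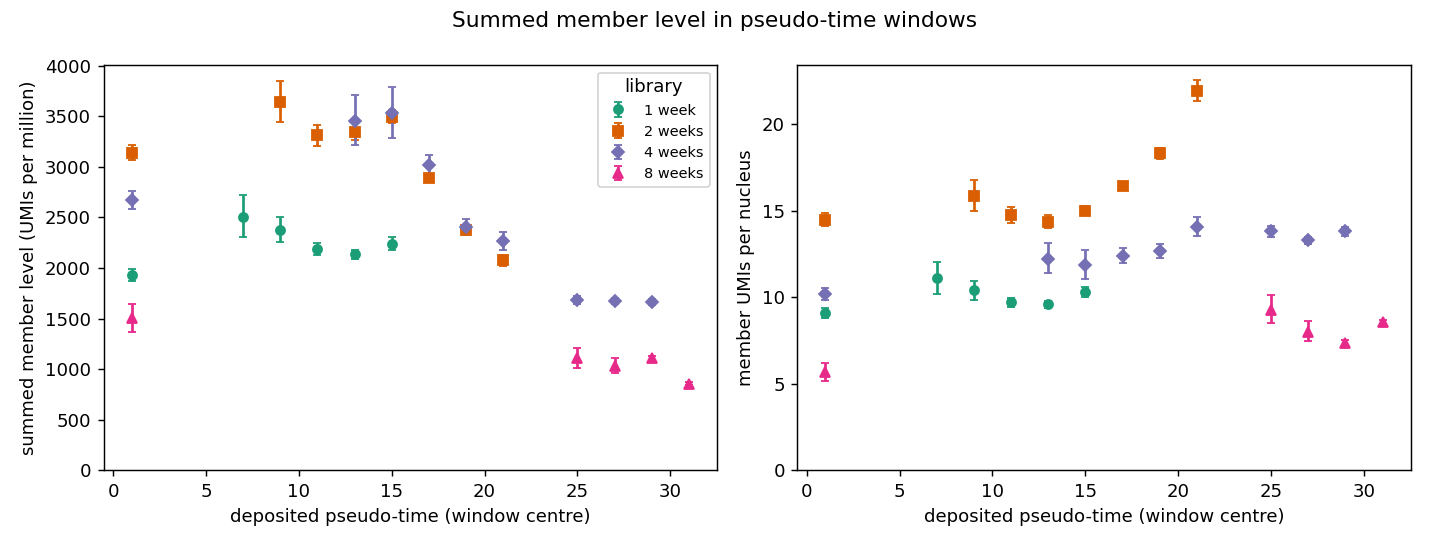
Summed member level (y axis) in windows of pseudo-time 2 units wide (x axis) for the 4 libraries, as CPM and as UMIs per nucleus, with exact Poisson 95% intervals, for windows of at least 50 nuclei. At w2 the CPM falls from 3644 to 2074 while the UMIs per nucleus rise from 15.9 to 21.9.

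The summed levels of large and small subunits were high and low in the same sums. Over the 38 sums the log2 levels of the subunits had a Pearson r of 0.97, and the ratio of large to small ranged from 0.987 to 1.61 with a median of 1.11. Both subunits were summed over the same nuclei, libraries and UMI totals, so this r is a description. Of 75 members with at least 500 UMIs, the profile of log2 CPM was closely like that of the summed other members for Rpl6 of the large subunit (r = 0.85, ranked 3), and least like it for Rpl7l1 (0.10), Rpl35 (0.19) and Rpl22l1 (0.24). The median r was 0.66. Of the 3 least like, Rpl7l1 and Rpl22l1 are paralogs and Rpl35 is a core protein of the large subunit.

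**Figure D3:**
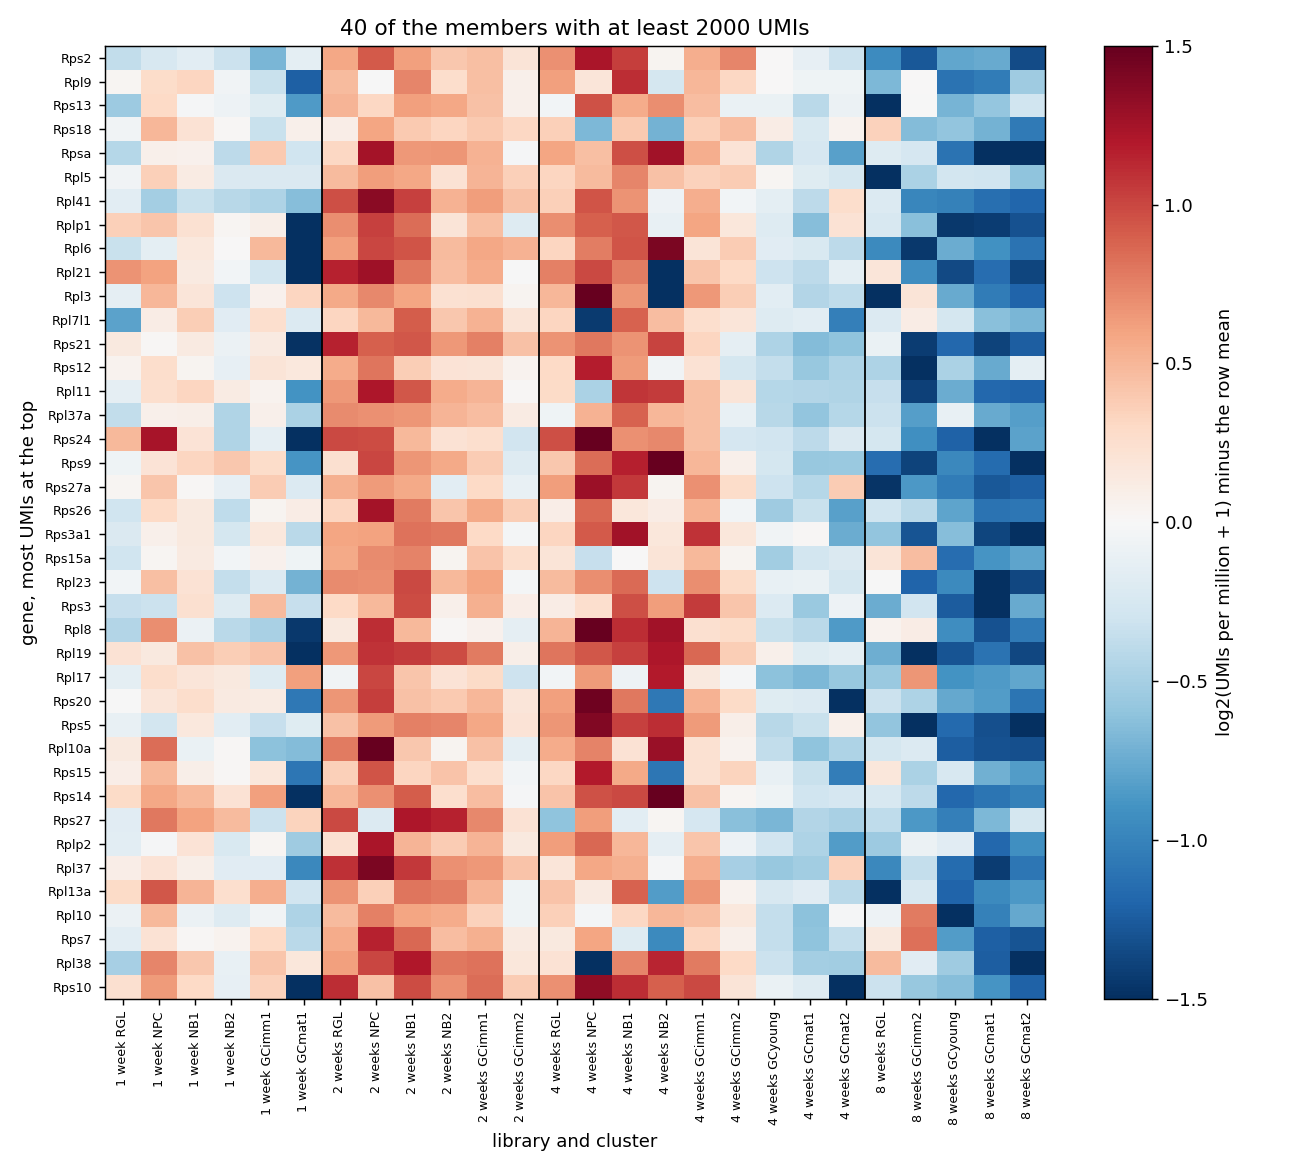
Colour map of 40 of the members with at least 2000 UMIs (one per line, most UMIs at the top) in each library and cluster (across, 26 sums of at least 10 nuclei), as log2 of CPM plus 1 minus the member's mean over the sums shown, with colours ending at -1.5 and 1.5. Most members are red, above their mean, in NPC and NB1 at w2 and w4, and blue, below it, in GCyoung, GCmat1 and GCmat2 at w8.

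To ask which single members changed between clusters, the counts were summed by cluster and library and fitted with edgeR's quasi-likelihood test over 13513 genes, in a model with a term for each library, on 29 sums with 16 residual degrees of freedom. A gene was called when its fold change was at least 1.5 and its Benjamini-Hochberg adjusted p at most 0.05. Of the members 79 were tested and Rps4l fell below the filter on low counts. Along the lineage 9 comparisons were made, and calls among members came only in the 3 that include NPC, which were 112, 75 and 22 nuclei at w1, w2 and w4.

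**Figure D4:**
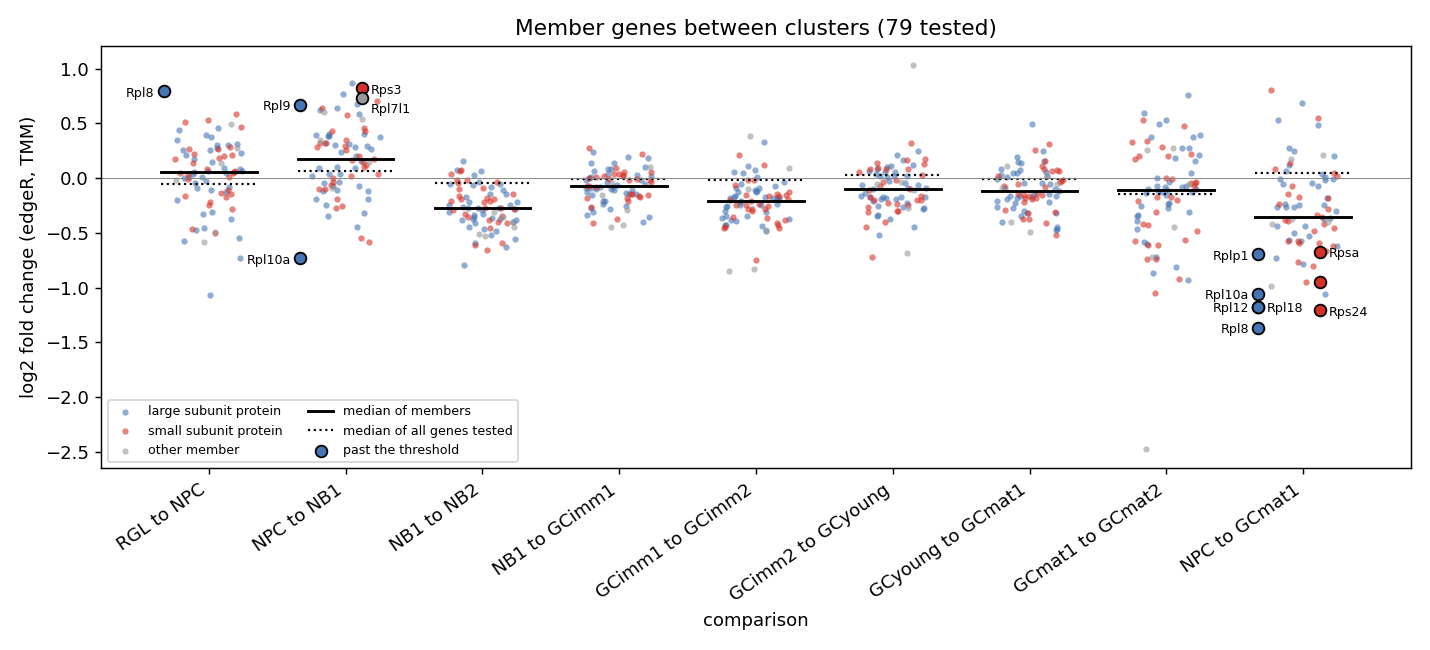
Log2 fold change (y axis) of the 79 tested members in 9 comparisons between clusters (x axis), with called members outlined and most of them named, solid lines for the median of the members and dotted lines for the median of all genes tested. From NB1 to NB2 and from NPC to GCmat1 the members' medians (-0.28 and -0.35) lie below those of all genes (-0.04 and 0.04).

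From RGL to NPC, when quiescent cells enter the cycle, 1 of 79 members rose and 0 fell, against 13.7% of all genes higher and 15.9% lower. Rpl8, a core protein near the peptide-bond centre of the large subunit (chr15:76904078-76906314, +, GRCm38), was at 27.0 CPM at w1, 40.9 at w2, 53.0 at w4 and 38.2 at w8 in RGL, and at 60.1, 80.1 and 131 CPM at w1, w2 and w4 in NPC. Each NPC value lay above every RGL value, and its log2 fold change was 0.79 ± 0.24 (SE), with an adjusted p of 0.00917 by edgeR. Without the w1 library it was 0.71 with an adjusted p of 0.101. Values of NPC lay above those of RGL without overlap for 7 of 79 members and below for 0, against 21.9% and 13.4% of all genes. The members had a median log2 fold change of 0.05 (49 above 0, 30 below) beside -0.05 over all genes. At an unadjusted p under 0.05, 1 member was higher and 1 lower, beside 2442 and 2799 of all 13513 genes. DESeq2 also called 1 member, beside 13.5% of all genes higher and 12.8% lower.

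From NPC to NB1, 3 members rose and 1 fell, against 14.7% and 14.6% of all genes, and the median of the members was 0.17 beside 0.06. Rps3, a small-subunit protein at the mRNA entry (chr7:99477896-99483738, -), was at 26.1, 46.2 and 39.3 CPM in NPC and 39.0, 65.6 and 65.0 CPM in NB1 at w1, w2 and w4. It was higher in NB1 in each library, while the groups overlapped between libraries (0.82 ± 0.30, adjusted p 0.0297 by edgeR). Rpl9 (chr5:65388364-65391444, -), of the large subunit, was at 56.1, 46.2 and 52.4 CPM in NPC and at 58.1, 77.5 and 101 CPM in NB1, with no overlap (0.67 ± 0.24, adjusted p 0.0279). Rpl7l1 (chr17:46773907-46782672, -) was at 40.1, 52.4 and 13.1 CPM in NPC and at 48.2, 70.2 and 69.5 CPM in NB1 (0.73 ± 0.28, adjusted p 0.0405). Its NB1 values were higher within each library and overlapped between libraries. Rpl10a, a large-subunit protein near the exit site (chr17:28328471-28331033, +), fell from 56.1, 89.3 and 52.4 CPM in NPC to 28.8, 41.1 and 35.9 CPM in NB1, without overlap (-0.73 ± 0.24, adjusted p 0.0143).

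From NPC to NB1 the CPM did not overlap for 1 member that was higher and 5 that were lower, against 15.1% and 21.9% of all genes. The 4 calls rested on few libraries and on the scaling. Rps3 had an adjusted p of 0.116, 0.114 and 0.0651 without w1, w2 and w4, and Rpl7l1 of 0.0509, 0.182 and 0.140. Rpl9 had 0.337 without w2 and 0.115 without w4, and Rpl10a 0.117 without w1 and 0.175 without w2. With RLE size factors or with DESeq2 the split was 0 higher and 2 lower. Of all genes, 12.5% were higher and 17% lower with RLE size factors, and 10.5% and 15.6% with DESeq2. Scaled by the number of nuclei, where the median of all genes was -0.23, it was 0 higher and 3 lower, beside 9.54% and 21% of all genes. The members were Rps24, Rpl8 and Rpl10a. At an unadjusted p under 0.05, 4 members were higher and 2 lower, beside 2703 and 2563 of all 13513 genes.

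In the 6 steps from NB1 to the mature clusters edgeR called 0 of 79 members in either direction, and DESeq2 called 0 as well. From NB1 to NB2, where 1.81% of all genes were called higher and 1.13% lower, 72 of 79 members lay below 0 (median -0.28, all genes -0.04). Of these 79, 14 were lower and 0 higher at an unadjusted p under 0.05 by edgeR, beside 764 and 710 of all 13513 genes. From GCimm1 to GCimm2 (6.52% and 2.91% of all genes) 69 members lay below 0 (median -0.20, all genes -0.02), 11 of them at an unadjusted p under 0.05. Of all 13513 genes, 1169 were lower and 1543 higher at that p in this step. The members' counts moved when a library was left out. The 14 became 7, 5 and 5 without w1, w2 and w4, and 4 with no library term. The 11 became 3 without w2, 5 without w4 and 0 with no library term. With DESeq2 they were 7 and 3. In both steps the median of the members was under the 1.5-fold that a call required. Scaled by nuclei, the members' median was -0.05 from NB1 to NB2 (all genes 0.19), with 0 at an unadjusted p under 0.05, and 0.21 from GCimm1 to GCimm2 (all genes 0.40), with 9.

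The remaining steps gave smaller medians. From NB1 to GCimm1 (7.76% of all genes higher, 4.75% lower) 52 members were below 0 with a median of -0.07, from GCimm2 to GCyoung (9.27% and 9.62%) 52 with -0.10, and from GCyoung to GCmat1 (1.6% and 2.25%) 54 with -0.11. From GCmat1 to GCmat2 (3.01% and 4.28%), the cluster with genes of neuronal activity, 54 were below 0 with a median of -0.11 beside -0.14 over all genes. At an unadjusted p under 0.05, 2, 2, 1 and 5 members were lower in these 4 comparisons and 0, 0, 1 and 0 higher. Of all 13513 genes, 1390, 1976, 845 and 1483 were lower at that p and 1785, 2091, 680 and 821 higher.

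Across the whole span from NPC to GCmat1, 8 of 79 members fell and 0 rose, against 20.2% of all genes lower and 21.9% higher, so the share of members called lower (10.1%) was under the background. Among the 8927 genes with as many UMIs as the members (310 to 5282), 19.9% were lower and 17.6% higher. The members' median was -0.35, with 61 below 0 and 18 above, beside 0.04 over all genes. It was -0.11 beside 0.08 without w4 and -0.29 to -0.33 without w1, w2 or w8, and -0.53 beside -0.13 with RLE size factors, -0.59 beside -0.01 with no library term and -0.18 beside 0.51 with no filter on low counts. In CPM, which is not corrected for the shift of all genes, 45 of 79 members had every NPC value above every GCmat1 value and 0 the reverse, against 37.2% and 12.8% of all genes. The NPC values came from w1, w2 and w4 and the GCmat1 values from w1, w4 and w8, and members were higher at w2 than w1 in NPC and lower at w8 than w4 in GCmat1 (medians 0.62 and -0.76, all genes 0.15 and -0.02), so in this count library and cluster cannot be told apart. DESeq2 called 16 lower and 0 higher, beside 23% and 17.4% of all genes. By edgeR, at an unadjusted p under 0.05, 14 were lower and 0 higher, beside 3212 and 3399 of all 13513 genes.

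Rpl8 and Rps24 had the lowest adjusted p-values among them. Rpl8 was at 60.1, 80.1 and 131 CPM in NPC at w1, w2 and w4, and at 12.8, 27.4 and 14.3 CPM in GCmat1 at w1, w4 and w8, so that every NPC value was above every GCmat1 value (-1.37 ± 0.29, adjusted p 7.52e-05 by edgeR). Rps24 (chr14:24487125-24496959, +) was at 92.2, 77.0 and 118 CPM in NPC and at 6.4, 29.1 and 12 CPM in GCmat1, where 6.4 CPM was 1 UMI, again with a gap (-1.21 ± 0.26, adjusted p 0.000126). Leaving out any library kept both calls, with log2 fold changes of -1.66 to -1.18 for Rpl8 and -1.51 to -0.82 for Rps24. Rps24 was called under every alternative tried, and Rpl8 under all but thinning to 2000 UMIs a nucleus (-0.93, adjusted p 0.0938).

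The calls of the others were less settled. Rpl12 (chr2:32961559-32965345, +) was at 38.1, 49.3 and 13.1 CPM in NPC and at 0, 10.8 and 10.2 CPM in GCmat1, where the 0 came from 17 nuclei at w1 and allows up to 3 UMIs (-1.18 ± 0.40, adjusted p 0.0130 by edgeR). Its adjusted p was 0.135, 0.0872 and 0.103 without w1, w2 and w4. Rpl18 (chr7:45715457-45720836, +) was at 28.1, 70.9 and 39.3 CPM in NPC and at 12.8, 11.9 and 6.83 CPM in GCmat1 (-1.17 ± 0.36, adjusted p 0.00569). It had 0.0905 without w2, and -0.67 with 0.501 without w4. For Rpl12 the lowest NPC value, 13.1 CPM at w4, was 1 UMI and lay within what the 0 allows. The values of Rpl18 did not overlap between the clusters, but they too rest on few UMIs in GCmat1 at w1 and in NPC at w4. For all members named, a gap is between values and leaves out counting error. That error was wide in the 17 GCmat1 nuclei at w1 and the 22 NPC nuclei at w4. Rpl10a was at 19.2, 20.0 and 11.8 CPM in GCmat1, below all its NPC values of 52.4 CPM or more (-1.05 ± 0.29, adjusted p 0.00218, and 0.0678 without w4).

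Rplp1, an acidic stalk protein that recruits elongation factors (chr9:61913284-61914542, -), was at 56.1, 86.3 and 78.6 CPM in NPC and at 12.8, 26.3 and 14.9 CPM in GCmat1, with no overlap (-0.70 ± 0.29, adjusted p 0.0478). It had 0.108, 0.250 and 0.145 without w1, w2 and w4, 0.278 with no filter on low counts, and -0.10 with 0.885 when thinned to 2000 UMIs a nucleus. Rpsa (chr9:120127689-120132369, +) was at 50.1, 114 and 65.5 CPM in NPC and at 38.4, 39.6 and 14.2 CPM in GCmat1, also without overlap (-0.67 ± 0.28, adjusted p 0.0495 by edgeR), and gave -0.39, -1.12 and -0.41 with 0.459, 0.0650 and 0.294 without w2, w4 and w8.

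The split between higher and lower also moved with the scaling. With RLE size factors 19 members were lower and 0 higher, beside 24% and 18.8% of all genes. Scaled by the number of nuclei, 5 members were higher and 2 lower from NPC to GCmat1, beside 37.1% and 14.1% of all genes. The median of all genes rose by 0.58 on the log2 scale there. Among the higher members were Rps27 (1.11), Rpl5 (0.80) and Rpl9 (0.72), and the lower ones were Rpl8 (-0.87) and Rps24 (-0.70). Rps27 was also called higher when thinned to 2000 UMIs a nucleus (1.53, adjusted p 0.0176) and without w1 (1.42, adjusted p 0.0224), each time beside 5 members that were lower. Of all genes, 20.7% were higher and 19.3% lower when thinned, and 19.8% and 15.2% without w1. The members' median was -0.35 beside 0.04 over all genes on the edgeR scale, and 0.17 beside 0.58 scaled by nuclei. Without w2 or w4, 3 members were called lower, beside 18.2% and 13% of all genes.

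The stalk and the proteins that hold 5S RNA were followed whatever their test gave. Of the 6 in that list (median -0.60 from NPC to GCmat1), Rpl12 and Rplp1 were called lower by edgeR as above (33.3%, beside 20.2% of all genes). The other 4 were called in no comparison. With DESeq2, Rplp2 (-0.84, adjusted p 0.0443) and Rpl11 (-0.72, adjusted p 0.0349) were also called lower from NPC to GCmat1, as they were with RLE size factors. Rplp2 was called as well among nuclei of low mitochondrial share (-0.92, adjusted p 0.0430) and after thinning (-1.39, adjusted p 0.0229), and Rpl11 on sums of at least 30 nuclei (-0.68, adjusted p 0.0419). Rplp0, the base of the stalk, was at 38.4, 13.9 and 4.34 CPM in GCmat1 at w1, w4 and w8 (-0.30 ± 0.46 from NPC). Rplp2, the partner of Rplp1, was at 28.1, 67.8 and 52.4 CPM in NPC and at 19.2, 20.2 and 11.9 CPM in GCmat1. Rpl5 was at 48.1, 58.5 and 52.4 CPM in NPC and at 32.0, 33 and 30.3 CPM in GCmat1, and Rpl11, which joins Rpl5 in binding 5S RNA and the p53 regulator Mdm2, was at 44.1, 86.3 and 26.2 CPM in NPC and at 19.2, 26.9 and 15.7 CPM in GCmat1. The edgeR log2 fold changes were -0.66 ± 0.32 for Rplp2, 0.25 ± 0.30 for Rpl5 and -0.53 ± 0.28 for Rpl11. In the fit the UMI total of each sum was multiplied by a scaling factor (TMM). It was 1.22, 1.37 and 1.42 in NPC at w1, w2 and w4, and 0.990, 0.715 and 0.707 in GCmat1 at w1, w4 and w8. The CPM of all members named carry no such factor, so a fall in CPM can be a smaller fall or a rise in the fit. Scaled by nuclei, Rpl5 was called higher (0.80, adjusted p 0.0271).

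The next core proteins each have a known role of their own. Rps6, the substrate of S6 kinase, was at 20.0, 27.7 and 39.3 CPM in NPC and at 19.2, 8.04 and 4.30 CPM in GCmat1. Rps27a, which is made as a fusion with ubiquitin, was at 50.1, 58.5 and 91.8 CPM in NPC and at 32.0, 27.5 and 14.9 CPM in GCmat1. Rps4x was at 26.1, 30.8 and 52.4 CPM in NPC and at 0, 17.2 and 7.70 CPM in GCmat1. By edgeR, with log2 fold changes of -0.66 ± 0.46, -0.46 ± 0.28 and -0.77 ± 0.39 from NPC to GCmat1, none of these 3 was called in any comparison. Rps4x was called with DESeq2 (adjusted p 0.0426) and with RLE size factors (-0.98, adjusted p 0.0353), and Rps6 with no library term (-1.22, adjusted p 0.0356). Rpl10, at the site where the tRNA enters, was at 38.1, 46.2 and 26.2 CPM in NPC and at 19.2, 17.2 and 12.8 CPM in GCmat1.

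Among the paralogs, only Rpl7l1 had a call. In GCmat1 it was at 32.0, 33 and 23.5 CPM at w1, w4 and w8, against 13.1 to 52.4 CPM in NPC, so that the values overlapped (0.21 ± 0.33). Its partner Rpl7 was at 22.0, 21.6 and 13.1 CPM in NPC and at 6.40, 11.1 and 7.27 CPM in GCmat1, where 13.1 CPM was 1 UMI (-0.07 ± 0.44, and 0.47 ± 0.43 scaled by nuclei). Rpl22l1 was at 24.1, 15.4 and 26.2 CPM in NPC and at 12.8, 15.5 and 10.2 CPM in GCmat1 (0.18 ± 0.45), and Rpl22 at 28.1, 18.5 and 39.3 CPM and at 32.0, 15.3 and 11.97 CPM. Both pairs of values overlapped between the clusters. Rps27l, Rpl36al and Rps4l were sparse, with 311, 457 and 236 UMIs in all, and Rps27l and Rpl36al had log2 fold changes of -0.42 ± 0.92 and -0.37 ± 0.80 from NPC to GCmat1. The counts of paralogs are uncertain, since reads shared with a near copy were dropped. Rpl37rt and Rps19bp1, the remaining members, had 367 and 445 UMIs and no call.

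The machinery around the ribosome was taken from lists chosen with earlier results of these data known. Of 58 tested genes for ribosome assembly in the nucleolus, 9 rose from RGL to NPC and 0 fell, with a median of 0.37 beside -0.05 over all genes. Nop56, a core protein of box C/D snoRNPs (1.14 ± 0.27), and Nolc1, a nucleolar chaperone (1.02 ± 0.30), led them. From NPC to NB1, 5 rose and 1 fell (median -0.09, 8.62% and 1.72% beside 14.7% and 14.6% of all genes), and Nop58, the partner of Nop56, was the 1 that fell (-0.67 ± 0.20). From NPC to GCmat1, 6 rose and 4 fell (median -0.08, 10.3% and 6.90% beside 21.9% and 20.2% of all genes), with Pwp2 (1.51 ± 0.56) and Bop1 (1.10 ± 0.36) higher and Tcof1, which acts in rDNA transcription (-2.73 ± 0.44), and Rrp1b (-1.01 ± 0.32) lower. The share of the list that rose from RGL to NPC, 15.5%, stood near the 13.7% of all genes.

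Of 41 translation factors, 4 rose and 0 fell from RGL to NPC (median 0.21, 9.76% higher beside 13.7% of all genes), among them Eif4g3 (0.81 ± 0.18) and Eif3h (0.74 ± 0.25). From NPC to NB1, 1 rose and 3 fell (2.44% and 7.32%, beside 14.7% and 14.6% of all genes), with Eef2k, the kinase that inhibits elongation factor 2, higher (1.01 ± 0.27) and Eif4a2 (-0.80 ± 0.21) and Pabpc1 (-0.67 ± 0.25) lower. From NPC to GCmat1, 1 rose and 7 fell (median -0.21, 17.1% lower beside 20.2% of all genes): Eef2k rose by 1.12 ± 0.30, and Eif6, which keeps the large subunit from joining (-2.56 ± 0.58), and Eef1b2 (-1.17 ± 0.36) had the largest falls. Both comparisons share the NPC sums.

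Of 19 genes of the mTORC1 and Myc pathways, 2 rose and 2 fell from RGL to NPC (10.5% each, beside 13.7% and 15.9% of all genes) and 3 rose and 3 fell from NPC to GCmat1 (15.8% each, beside 21.9% and 20.2%). Mycn, a Myc family factor, rose by 1.71 ± 0.31 into NPC and was lower by -3.90 ± 0.47 in GCmat1. Deptor, an mTOR inhibitor, was higher in NB1 than in NPC (1.57 ± 0.30) and lower in GCmat1 than in NPC (-2.24 ± 0.46), while Tsc2, which restrains mTORC1, was higher in GCmat1 (1.39 ± 0.41). The 72 mitochondrial ribosomal proteins, whose genes are nuclear, had a median of 0.07 from NPC to GCmat1 with 5 higher and 2 lower (6.94% and 2.78%, beside 21.9% and 20.2% of all genes). That median lay near the 0.04 of all genes. Of 8 snoRNA host genes 1 was lower from NPC to GCmat1 (12.5%, beside 20.2% of all genes), Snhg5 (-2.03 ± 0.48).

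Lists that mark RNA from outside the nucleus were set beside these. Of 6 tested mRNAs of the mitochondrial genome 0 were called by edgeR in the steps from RGL to NPC, NPC to NB1 and NPC to GCmat1, where their medians were -0.44, 0.24 and 0.15. Of 25 neuronal transcripts abundant in cytoplasm, 2 rose and 5 fell from NPC to GCmat1 (8% and 20%, beside 21.9% and 20.2% of all genes), among them Stmn1 (-3.38 ± 0.26) and Cst3 (-1.56 ± 0.33), which also mark precursors and glia. Of the same 25, 7 rose and 1 fell from NPC to NB1 (28% and 4%, beside 14.7% and 14.6%), 5 fell from GCimm2 to GCyoung (20%, beside 9.62%) and 2 fell from GCyoung to GCmat1 (8%, beside 2.25%).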

How the data were processed

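Nuclear RNA of sorted GFP+ nuclei was counted with 10x 3′ chemistry. The deposited counts are UMIs per gene and barcode, which the authors made with STARsolo 2.7.4a on mm10, counting exonic and intronic reads and dropping reads that match several places. A second table deposited by the authors holds log2 values of UMIs divided by scran size factors plus 1, for 14367 nuclei and 13353 genes. It also gives clusters and pseudo-time. The authors had first removed doublets, nuclei with a high mitochondrial share, outliers, clusters of w4 nuclei set aside, and listed sex and stress genes. This second table supplied the genes, nuclei and clusters, and all levels came from the counts of those nuclei.

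Counts were summed by cluster and library, with CPM taken over all UMIs and without the TMM factors of the fit. Sums of at least 10 nuclei entered edgeR 4.0.16 (TMM, quasi-likelihood test, cluster and library terms, R 4.3.3), and p-values were adjusted over all 13513 genes tested by Benjamini-Hochberg. Nuclei of 1 library are not replicates, libraries of different weeks served as replicates of a cluster, and p-values measure their spread. Positions are those of GENCODE on GRCm38.

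Named in the text, by rule, are up to 3 called members with the largest change in each direction per comparison that moved the same way in every library holding both clusters, fixed members of special role, paralogs with partners, and the 3 most and least typical profiles. Other members were named because few were called, after their values were seen, and some genes that the rule or the counts include are not reported here. The members, lists and comparisons were chosen with earlier results of these data known. Alternatives were RLE size factors, DESeq2 1.42.0, no filter on low counts, no fold change required, sums of at least 30 nuclei, no library term, thinning to 2000 UMIs (141 nuclei below that were left out), nuclei of low mitochondrial share and leaving out each library, and, chosen after seeing the data, scaling by nuclei. The method was also run on simulated counts with a common dispersion and no differences between libraries. The real sums differ from these counts, so that run does not bear on single calls.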

Additional observations from a re-analysis of the deposited data

Results flagged for a closer look

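Values from data outside the comparisons are these. Rpl26 had 1649 UMIs and Rpl35a 1600 UMIs in the count tables of the annotated nuclei, and both were among the stress and sex genes that the authors removed from the expression table. Rpl26, a large-subunit protein, was at 36.1, 52.4 and 65.5 CPM in NPC at w1, w2 and w4 and at 12.8, 13.3 and 9.64 CPM in GCmat1 at w1, w4 and w8, without overlap. Rpl35a was at 26.1, 30.8 and 13.1 CPM in NPC and at 12.8, 13.6 and 7.74 CPM in GCmat1, which overlapped through the w4 NPC value of 1 UMI.

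Barcodes of the count tables that carry no annotation also held member transcripts. Their summed member level was 3105 CPM in 410 barcodes at w1, 3587 CPM in 373 at w2, 1506 CPM in 1628 at w4 and 923 CPM in 268 at w8, beside 2124, 2862, 1899 and 957 CPM in the annotated nuclei. The level was above that of the annotated nuclei at w1 and w2 and below it at w4 and w8.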

How the results depend on the processing

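The counts of called members rest on few libraries: NPC were 112, 75 and 22 nuclei and GCmat1 17 nuclei at w1. The members' median SE from NPC to GCmat1 was 0.36 on the log2 scale, below the 0.467 of the 8927 genes in the same range of UMIs, of which 19.9% were called lower and 17.6% higher. From NPC to GCmat1 the count of 8 became 19 with RLE size factors, 16 with DESeq2 and 5 with no filter on low counts, and 3 to 7 when a library was left out. The share of all genes called lower was 20.2% in the main fit. It was 24% with RLE size factors, 23% with DESeq2, 8.64% with no filter and 13% to 18.2% with a library left out. From NPC to NB1 the count of 4 became 2 with RLE size factors or DESeq2, 0 with no library term or thinned, and 1 to 4 when a library was left out. Of all genes, 12.5% were higher and 17% lower with RLE size factors, and 10.5% and 15.6% with DESeq2. These shares were 13% and 13.3% with no library term and 14.5% and 13.8% thinned. Leaving out a library gave 9.84% to 14.5% higher and 9.02% to 13.4% lower. From RGL to NPC the count of 1 became 0 with no library term or thinned, 2 scaled by nuclei, and 0 to 1 when a library was left out. The shares of all genes higher and lower were 13% and 14.6% with no library term and 13.7% each thinned. They were 17.8% and 12.2% scaled by nuclei, and 8.96% to 13.7% and 11.2% to 15.7% with a library left out. From GCimm1 to GCimm2 the count of 0 became 1 scaled by nuclei (Rps18, 0.62) and 0 to 1 when a library was left out (Rps29, -1.08, without w4). Of all genes, 21.5% were higher scaled by nuclei and 1.93% were lower without w4. The cause was not tested. In the other 5 comparisons the count stayed at 0 under every alternative.

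Scaled by nuclei, the summed level reversed to 0.00784 from NB1 to NB2, 0.12 from NB1 to GCimm1, 0.20 from GCimm1 to GCimm2, 0.0945 from GCimm2 to GCyoung, 0.000597 from GCyoung to GCmat1, -0.225 from GCmat1 to GCmat2 and 0.21 from NPC to GCmat1. Without w8, GCmat1 to GCmat2 was -0.000396, and 0.0169 without w4. No member called in a comparison changed sign there under any alternative. In no library did NPC and GCmat1 both reach 30 nuclei, so that summed level was not computed. Between weeks no paired analysis was possible because each week was 1 library. Clusters were compared in a model with a library term. Only w1 and w4 held fitted sums of both NPC and GCmat1. The w2 and w8 sums entered that comparison through library effects shared with other clusters. Without the library term, 12 members were lower and 0 higher from NPC to GCmat1, beside 22.7% and 21.6% of all genes.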
